A study of Mus musculus with 16 samples.

Results

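The collagen chains are the genes whose mouse symbol has the form Col, a type number, the letter a and a chain number, such as *Col1a1*. Of the 23609 genes in the table of mammary tumors, 43 met this rule, and 41 had a mean normalized value of at least 10 over the tumors and were tested. *Col19a1* and *Col6a4* fell below this level. Of the 44 chain names in the table of mouse gene names, *Col22a1* was not analysed here.

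RNA-seq of total RNA from primary mammary tumors compared *Resf1* gene trap x PyMT mice with wildtype x PyMT mice, and 5 tumors of each group were used here. All animals carried the MMTV-PyMT transgene, which expresses the polyoma middle T antigen from the MMTV promoter, a promoter active mainly in mammary epithelium. The gene trap animals, described as *Resf1* +/-, carried 1 copy of a lentiviral enhancer/gene trap in the first exon of *Resf1* on a C57BL/6 background, which produces an EGFP-Cre fusion, and were crossed to FVB/MMTV-PyMT. The wildtype animals were littermates without the trap, and the trap was present in every cell of the gene trap animals and not in the tumor epithelium alone. The labels give no age at harvest. The authors' values are estimated counts that were already normalized between tumors, so the sequencing depth is unknown. Column totals were between 31995078 and 42153593. *Resf1* averaged 4099 ± 400 in wildtype and 3516 ± 361 in gene trap tumors (SD, n = 5 each), with overlap between the groups. The log2 difference was -0.22 (standard error 0.09), lower in the gene trap mean, with an unadjusted p of 0.0313 and an adjusted p of 0.9997 in limma, and 2.28% of all genes had an unadjusted p under 0.05. Over all tested genes 1 tumor, gene trap replicate 2, lay apart, with a root mean square log2 deviation of 0.634 from the gene means, against 0.316 to 0.376 in the other 9 tumors. Some values are also given without it. Without it the sign turned for *Col9a2*, *Col16a1* and *Col4a3*, to -0.15, -0.10 and -0.05 on the log2 scale.

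Collagens are secreted or membrane-anchored proteins in which 3 chains wind into a helix. Fibrillar collagens such as types I, III and V assemble into the fibrils of the stroma and are made mostly by fibroblasts. Type IV collagen forms the sheet-like network of basement membranes, which lies under epithelium and around blood vessels. The transmembrane collagens (types XIII, XVII, XXIII and XXV) stay anchored in the plasma membrane of the cell that makes them, and type XVII belongs to the hemidesmosomes of basal epithelial cells. In mammary tumors, stromal collagen surrounds the epithelial nests, and basement membrane collagen marks their border. A tumor piece holds both compartments, so that in these bulk samples fewer cells of a type and less RNA per cell cannot be told apart.

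The collagen chains did not differ between gene trap and wildtype tumors past the threshold. At an adjusted p under 0.05, 0 of 41 chains were called, where 0.0% of the 21034 genes tested were called in all. The smallest adjusted p over all genes was 0.9997 (limma, Benjamini-Hochberg). At an unadjusted p under 0.05, 1 of 41 chains (2.44%) was found, *Col20a1*, against 2.28% of all genes. None of the 41 chains had groups of tumors that did not overlap, against 0.528% of all genes. The 95% confidence interval of the difference included 0 for 40 of the 41 chains.

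The direction of the mean difference was split. Of the 41 chains, 24 were higher and 17 were lower in the gene trap mean, where 51.4% of all genes were higher. The median log2 difference was 0.06 over the chains and 0.0047 over all genes. Leaving out gene trap replicate 1 changed the split to 17 higher and 24 lower with a median of -0.06, and leaving out gene trap replicate 2 gave 21 higher and 20 lower. The chains varied more between tumors than most genes did. The median standard deviation of the log2 value over the 10 tumors was 0.393 for the chains and 0.251 for all genes tested.

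**Figure D1:**
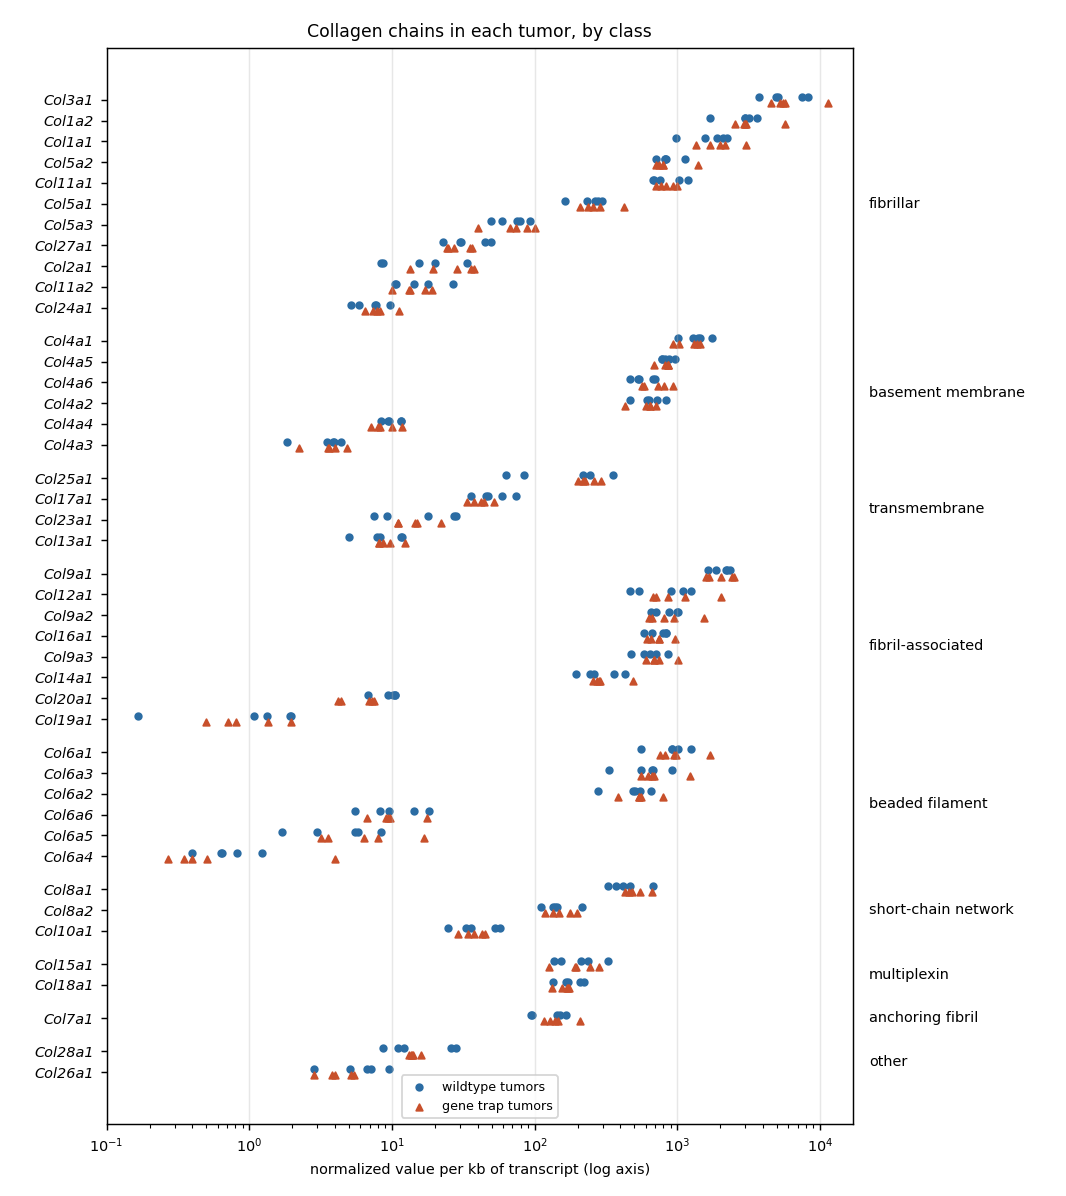
Normalized value per kb of the longest transcript (log axis) of the 43 collagen chains in each of 5 wildtype (circles) and 5 gene trap tumors (triangles), 1 point per tumor, grouped by class and ordered by mean level. *Col3a1* stood highest with a mean of 6167 per kb, and the transmembrane chains other than *Col25a1* stood below 100 per kb.

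Levels of different genes were compared only per kb of the longest annotated transcript. On this scale *Col3a1*, the chain of type III collagen, was the highest with a mean of 6167 per kb over the 10 tumors and made up 23.5% of all collagen. It was followed by *Col1a2* at 3164, *Col9a1* at 2050, *Col1a1* at 1897 and *Col4a1* at 1302 per kb. *Col9a1*, a chain of a fibril-associated collagen best known from cartilage, thus had a higher mean than *Col1a1*, with overlapping ranges over the tumors. The cartilage collagen chain *Col2a1* had a mean level of only 22.1 per kb. The fibrillar class summed to 49.9% ± 5.79 of all collagen per kb in wildtype and 50.8% ± 4.90 in gene trap tumors (SD, n = 5 each). The basement membrane chains summed to 14.1% ± 3.72 and 12.7% ± 2.08 in the same order, and the transmembrane chains to 1.14% ± 0.666 and 1.17% ± 0.306.

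Fibrillar chains build the banded fibrils of the stroma, and 11 were tested. In the gene trap mean 8 were higher and 3 were lower, none had an unadjusted p under 0.05, and the median log2 difference was 0.11. Without gene trap replicate 1 this median was -0.06, and without gene trap replicate 2 it was 0.15. *Col3a1* had normalized values of 28367, 27166, 41354, 20790 and 45804 in wildtype replicates 1 to 5. In gene trap replicates 1 to 5 the values of *Col3a1* were 62892, 30451, 29403, 31516 and 25407. The highest tumor belonged to the gene trap group and the lowest to the wildtype group, and the other 8 values were interleaved. The log2 difference of *Col3a1* was 0.11 (standard error 0.26), and it was -0.11 without gene trap replicate 1.

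Type I collagen, the main fibril collagen, is built from the products of *Col1a1* and *Col1a2*. *Col1a1* was at 13161, 12426, 9224, 5802 and 11297 in wildtype replicates 1 to 5 and at 17969, 11752, 12840, 10052 and 7995 in gene trap replicates 1 to 5. *Col1a2* was at 16910, 16028, 15910, 9006 and 19441 in the wildtype tumors and at 30488, 16029, 16255, 15647 and 13511 in the gene trap tumors. Wildtype replicate 4 was the lowest tumor for both chains and gene trap replicate 1 the highest. The log2 differences were 0.23 (standard error 0.24) for *Col1a1* and 0.23 (standard error 0.23) for *Col1a2*. Without gene trap replicate 1, that of *Col1a1* was 0.07 and that of *Col1a2* was 0.03. Without wildtype replicate 4 that of *Col1a1* was 0.03.

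The chains of type V collagen, which starts fibrils and limits their width, had log2 differences of 0.17 for *Col5a1*, 0.01 for *Col5a2* and 0.02 for *Col5a3*. Without gene trap replicate 1 they were 0.02, -0.17 and -0.10. *Col11a1* and *Col11a2*, chains of the type XI collagen of cartilage fibrils, were at -0.01 and -0.08. The largest difference of the class in size was that of *Col2a1*, the chain of the main cartilage collagen. Its normalized values were low, at 79.3, 102, 42.5, 172 and 44.1 in wildtype replicates 1 to 5 and 182, 99.8, 68.0, 145 and 192 in gene trap replicates 1 to 5. The highest value was that of a gene trap tumor, and wildtype replicate 4 stood above 3 of the 5 gene trap tumors. The log2 difference was 0.73 (standard error 0.40, 95% confidence interval -0.13 to 1.60) with an unadjusted p of 0.0902 and an adjusted p of 0.9997 in limma. It was 1.02 without wildtype replicate 4, with an unadjusted p of 0.0155 in limma, and 0.53 without wildtype replicate 3, with an unadjusted p of 0.214. *Col27a1* was at -0.23 and *Col24a1* at 0.20 on the log2 scale.

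**Figure D2:**
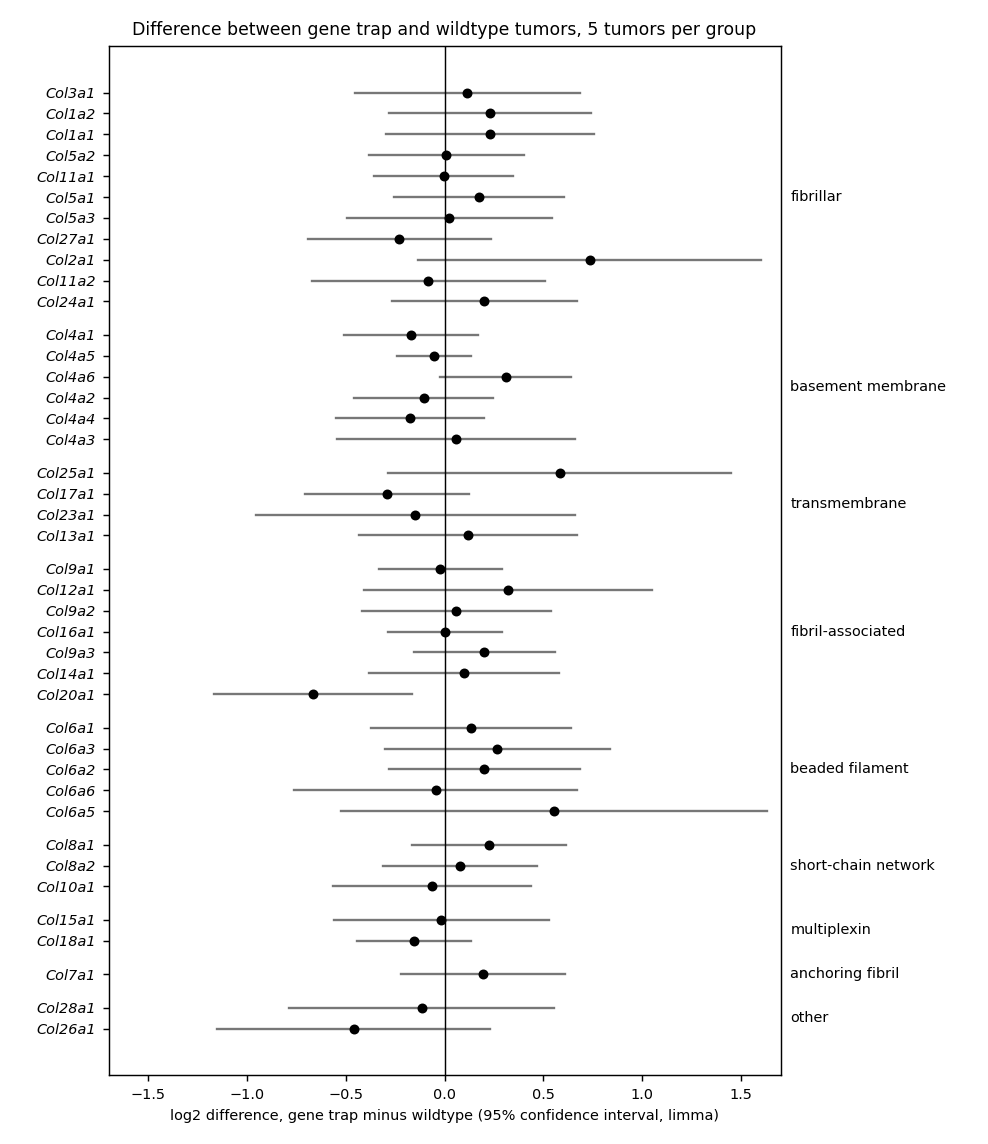
Log2 difference between gene trap and wildtype tumors (points) with its 95% confidence interval from limma (lines) for the 41 chains tested, by class, 5 tumors per group. The interval crosses 0 for 40 chains, and *Col20a1*, at -0.67, is the exception.

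The 6 basement membrane chains are encoded as 3 head-to-head gene pairs, and members of a pair are assembled into the same protomers. *Col4a1* and *Col4a2* form the network found in nearly every basement membrane. *Col4a3*, *Col4a4* and *Col4a5* form that of the kidney glomerulus and lung, and *Col4a5* with *Col4a6* that of smooth muscle and some epithelia, including the breast. In the gene trap mean 2 of the 6 were higher and 4 were lower, none had an unadjusted p under 0.05, and the median log2 difference was -0.08. It was -0.09 without gene trap replicate 2 and 0.01 without gene trap replicate 5. In the RefSeq promoter table (build GRCm38.p6), the start sites of *Col4a1* and *Col4a2* lie on opposite strands of chromosome 8 and their first bases overlap over 22 bases at chr8:11312805-11312826. This shared stretch is shown 5′ to 3′ on the strand of each gene because these chains are made together for 1 protein, with the GC box motif (GGGCGG on either strand) in capitals.
*Col4a2*, plus strand: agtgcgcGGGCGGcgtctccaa
*Col4a1*, minus strand: ttggagacgCCGCCCgcgcact

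*Col4a1* had normalized values of 8525, 9612, 6658, 11656 and 9225 in wildtype replicates 1 to 5 and of 8707, 6845, 9622, 9063 and 6223 in gene trap replicates 1 to 5. *Col4a2* was at 3960, 4643, 3007, 5411 and 4111 in the wildtype tumors and at 4160, 3874, 4569, 4187 and 2765 in the gene trap tumors. For both chains wildtype replicate 4 was the highest tumor and gene trap replicate 5 the lowest. This is the opposite of *Col3a1*, *Col1a1* and *Col1a2*, for which wildtype replicate 4 was the lowest. The log2 differences were -0.17 (standard error 0.16) for *Col4a1* and -0.11 (standard error 0.16) for *Col4a2*.

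*Col4a5* had the narrowest range of the 6 chains, with a highest value 1.41 times the lowest. It was at 5723, 5395, 5105, 6334 and 5146 in wildtype replicates 1 to 5 and at 5606, 5632, 5646, 5327 and 4507 in gene trap replicates 1 to 5, with a log2 difference of -0.05 (standard error 0.09). *Col4a6* was at 3094, 4489, 3550, 4606 and 3589 in the wildtype tumors and at 5383, 6216, 4879, 3868 and 3772 in the gene trap tumors. In 3 gene trap tumors *Col4a6* stood above every wildtype tumor, and the other 2 lay within the wildtype range. Its log2 difference was 0.31 (standard error 0.15, 95% confidence interval -0.02 to 0.64), with an unadjusted p of 0.0653 and an adjusted p of 0.9997 in limma. The unadjusted p was 0.161 with a difference of 0.21 without gene trap replicate 2 and 0.0259 with a difference of 0.39 without gene trap replicate 5. *Col4a3* and *Col4a4*, on chromosome 1, were near the low end of the class. *Col4a3* ranged from 15.9 to 41.2 over the 10 tumors and *Col4a4* from 71.7 to 118. Their log2 differences were 0.06 and -0.18.

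The start sites of *Col4a5* and *Col4a6* lie 1343 bases apart on the X chromosome, head to head, in the same RefSeq table. In GENCODE mouse release M21 an exon of *Col4a5* overlaps the 250 bases before its RefSeq start. The distance therefore holds for these RefSeq starts only. The 250 bases before the start of *Col4a6* at chrX:141474077-141474326 (GRCm38.p6, minus strand) are shown because it had the largest difference of the class in size. The capitals mark a GC box on the opposite strand, 21 to 16 bases before the start.
*Col4a6*: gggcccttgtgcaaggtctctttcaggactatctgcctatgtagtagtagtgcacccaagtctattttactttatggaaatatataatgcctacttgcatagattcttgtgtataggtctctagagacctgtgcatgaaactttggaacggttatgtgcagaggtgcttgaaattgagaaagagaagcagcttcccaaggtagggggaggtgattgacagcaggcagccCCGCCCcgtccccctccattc

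The 4 transmembrane chains span the cell membrane. In the gene trap mean 2 were higher and 2 were lower, none had an unadjusted p under 0.05, and the median log2 difference was -0.01. It was 0.14 without wildtype replicate 2 and -0.19 without wildtype replicate 3. The median standard deviation of the log2 value over tumors was 0.507, against 0.417 for the fibrillar and 0.284 for the basement membrane chains. It was 0.785 for *Col25a1* and 0.647 for *Col23a1*, and 0.347 for *Col17a1* and 0.367 for *Col13a1*. *Col25a1*, which encodes the precursor of a component of amyloid plaques and is otherwise known from muscle and nerve, made up 74.8% of the class per kb. Its normalized values were 1630, 1462, 563, 2360 and 424 in wildtype replicates 1 to 5 and 1348, 1737, 1962, 1467 and 1510 in gene trap replicates 1 to 5. The wildtype tumors spread 5.57 fold and included both the highest and the lowest of the 10 values, while the gene trap tumors lay inside that range. The log2 difference was 0.58 (standard error 0.40, 95% confidence interval -0.28 to 1.45) with an unadjusted p of 0.169 and an adjusted p of 0.9997 in limma. It was 0.87, with an unadjusted p of 0.0328, without wildtype replicate 4. Without wildtype replicate 3 it was 0.36 (unadjusted p = 0.383 in limma) and without wildtype replicate 5 it was 0.25 (unadjusted p = 0.451 in limma).

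*Col17a1*, the hemidesmosome chain, was at 328, 417, 264, 254 and 199 in wildtype replicates 1 to 5 and at 246, 210, 234, 187 and 291 in gene trap replicates 1 to 5. The groups overlapped, and the log2 difference was -0.29 (standard error 0.19) with an unadjusted p of 0.149. The 8 markers of basal epithelial cells, in which *Col17a1* is normally made, were lower in the gene trap mean in 8 of 8 cases with a median log2 difference of -0.34. Of all genes tested, 10221 of 21034 were lower. *Krt17* was the only basal marker with an unadjusted p under 0.05. Their summed level ranged from 7421 to 9935 in wildtype and from 5580 to 7497 in gene trap tumors, and none of the 8 was at 0. The part of these cells in the level of *Col17a1* was not tested. *Col23a1* ranged from 42.3 to 160 in wildtype tumors and from 62.0 to 125 in gene trap tumors, with a log2 difference of -0.15. *Col13a1*, a chain of cell adhesion sites and the neuromuscular junction, ranged from 15.9 to 37.4 and from 25.6 to 39.1, with a log2 difference of 0.12.

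The levels of *Col3a1* and *Col25a1* were negatively correlated over the tumors (r = -0.62). This pair was chosen after its values were seen and was not tested. Over all 44 pairs of a fibrillar with a transmembrane chain the median r was 0.053, and 24 were positive. The bases before the starts of *Col3a1* and *Col25a1*, the leading chains of their classes, are therefore shown side by side for this pair alone. They are 250 bases each on the plus strand, at chr1:45311288-45311537 for *Col3a1* and chr3:130180595-130180844 for *Col25a1* (RefSeq, GRCm38.p6). The capitals mark CCAAT boxes (CCAAT), GC boxes (GGGCGG) and TATA boxes (TATAAA), searched on both strands and without overlap between motifs. *Col3a1* held 1 TATA box, 117 to 112 bases before its start, and *Col25a1* held 1 CCAAT box and 2 GC boxes.
*Col3a1*: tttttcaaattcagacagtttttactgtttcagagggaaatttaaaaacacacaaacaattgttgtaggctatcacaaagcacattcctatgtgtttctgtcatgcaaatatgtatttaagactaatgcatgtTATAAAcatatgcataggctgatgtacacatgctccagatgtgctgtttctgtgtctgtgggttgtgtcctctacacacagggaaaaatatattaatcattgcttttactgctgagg
*Col25a1*: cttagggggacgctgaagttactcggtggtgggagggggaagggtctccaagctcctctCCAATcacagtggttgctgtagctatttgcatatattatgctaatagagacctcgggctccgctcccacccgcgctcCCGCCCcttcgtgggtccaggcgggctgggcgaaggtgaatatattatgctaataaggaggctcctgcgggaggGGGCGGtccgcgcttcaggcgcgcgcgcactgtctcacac

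Over all 32851 promoters of the table, a CCAAT box was found in 33.8% of the 250-base windows, a GC box in 32.7% and a TATA box in 12.4%. Of the 38 windows of the 35 chains that were matched, 13 (34.2%) held a CCAAT box, 22 (57.9%) a GC box and 5 (13.2%) a TATA box. A match is a description of the letters and was not tested for use.

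Fibril-associated collagens decorate the surface of fibrils, and 7 of 8 in the table were tested. In the gene trap mean 5 were higher and 2 were lower, with a median log2 difference of 0.06. The sign of this median was not fixed, since it was -0.09 without gene trap replicate 2 and -0.07 with tumor weights. *Col20a1* had the smallest p of all chains. Its normalized values were low, at 34.3, 52.8, 47.3, 51.3 and 52.8 in wildtype replicates 1 to 5 and 20.8, 34.6, 21.9, 36.3 and 37.5 in gene trap replicates 1 to 5. In 4 wildtype tumors *Col20a1* stood above every gene trap tumor, and wildtype replicate 1 lay among the gene trap tumors. The log2 difference was -0.67 (standard error 0.23, 95% confidence interval -1.17 to -0.17) with an unadjusted p of 0.0131 and an adjusted p of 0.9997 in limma. With each tumor left out the unadjusted p stayed between 0.00651 and 0.0363. *Col20a1* was not tested where a mean of at least 50 was required.

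*Col9a1* was at 8542, 6271, 8422, 9007 and 7204 in wildtype replicates 1 to 5 and at 7750, 9263, 6442, 9576 and 6114 in gene trap replicates 1 to 5, with a log2 difference of -0.02 (standard error 0.14). Its highest value was 1.57 times its lowest. Its partners *Col9a2* and *Col9a3* had log2 differences of 0.06 and 0.20, and both were highest in gene trap replicate 2, at 4509 and 3094. Without that tumor the log2 differences were -0.15 for *Col9a2* and 0.09 for *Col9a3*. Of the chondrocyte markers, 4 of 8 were analysed, and their summed level ranged from 87.6 to 551 in wildtype tumors and from 123 to 276 in gene trap tumors. The markers *Matn1*, *Matn3*, *Hapln1* and *Ucma* were not analysed here. *Col12a1* and *Col14a1*, found on fibrils of dense connective tissue, were at 0.32 and 0.10, and *Col16a1* was at 0.00.

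Type VI collagen forms beaded filaments around cells from the chains *Col6a1*, *Col6a2* and *Col6a3*. Of the 5 type VI chains tested 4 were higher in the gene trap mean and 1 was lower, with a median log2 difference of 0.20 and none at an unadjusted p under 0.05. Without gene trap replicate 1 the median was 0.07. *Col6a1* was at 3788, 3796, 4135, 2302 and 5140 in wildtype replicates 1 to 5 and at 6933, 3348, 3888, 3990 and 3117 in gene trap replicates 1 to 5. As for type I collagen, gene trap replicate 1 was the highest tumor and wildtype replicate 4 the lowest. The log2 differences were 0.13 (standard error 0.23) for *Col6a1*, 0.20 for *Col6a2* and 0.27 for *Col6a3*. Without wildtype replicate 4 those of *Col6a2* and *Col6a3* were 0.01 and 0.05, and without gene trap replicate 1 that of *Col6a1* was -0.06. *Col6a5* varied 9.92 fold between tumors, from 15.8 to 157, with a log2 difference of 0.56, and *Col6a6* was at -0.04.

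The remaining chains showed differences of the same order. *Col8a1* and *Col8a2*, which form the hexagonal network of some vessel walls and the cornea, were at 0.22 and 0.08 on the log2 scale. *Col10a1*, known from growth plate cartilage, was at -0.06. *Col15a1* and *Col18a1*, basement membrane-associated proteins of which *Col18a1* contains endostatin, were at -0.02 and -0.16. *Col7a1*, the chain of the anchoring fibrils below epithelium, was at 0.19 (standard error 0.19) with a mean of 1201 ± 305 in wildtype and 1366 ± 333 in gene trap tumors (SD, n = 5 each). *Col28a1* was at -0.12 and *Col26a1* at -0.46. Below the level of testing, *Col19a1* ranged from 0.896 to 10.7 and *Col6a4* from 1.99 to 29.2 over the 10 tumors.

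**Figure D3:**
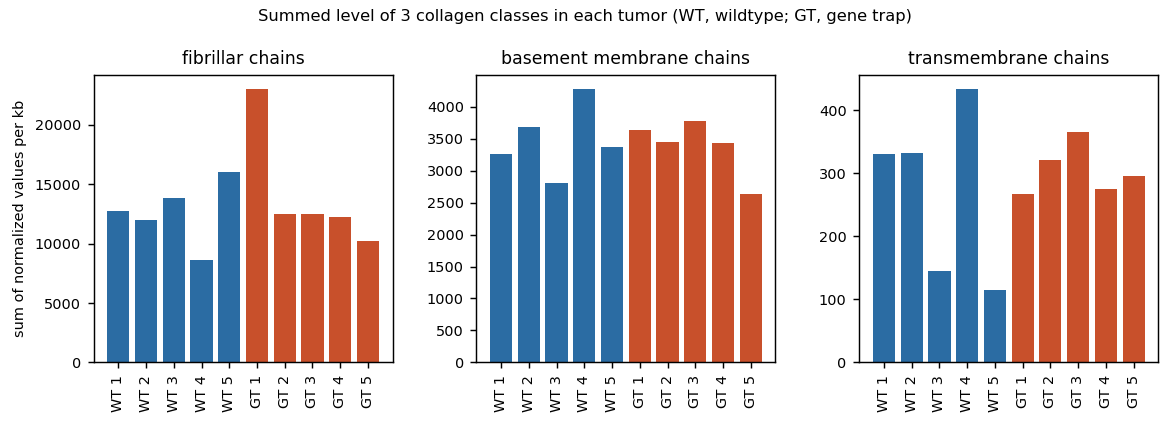
Sum of the normalized values per kb over the fibrillar, basement membrane and transmembrane chains in each tumor (bars, 1 per tumor, each axis from 0). Fibrillar chains peak in gene trap replicate 1 at 23040 and are lowest in wildtype replicate 4 at 8619, where the other classes are at their highest.

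The balance between the classes differed more between tumors than between groups. The fibrillar sum per kb ranged from 8619 to 16040 in wildtype and from 10200 to 23040 in gene trap tumors. The basement membrane sum ranged from 2801 to 4279 and from 2637 to 3775 in the same order, and the transmembrane sum from 114 to 434 and from 268 to 365. The ratio of fibrillar to basement membrane chains was lowest in wildtype replicate 4 at 2.01 and highest in gene trap replicate 1 at 6.33. It averaged 3.78 ± 1.19 in wildtype and 4.15 ± 1.24 in gene trap tumors (SD, n = 5 each). All collagen chains together made up between 0.332% and 0.726% of the column total, the lowest in wildtype replicate 4 and the highest in gene trap replicate 1. Gene trap replicate 1 was the highest tumor for 13 of the 43 chains, and wildtype replicate 4 was the highest for 9 and the lowest for 12.

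To ask whether chains of the same collagen varied together, 12 pairs of chains were correlated over the 10 tumors on the log2 scale, with permutation p-values adjusted over the 12 pairs. Of these, 5 pairs had an adjusted p under 0.05, and each was a pair of partner chains. *Col4a1* and *Col4a2* had a Pearson r of 0.938 (adjusted p = 0.00012 by permutation) and a Spearman rho of 0.952 (adjusted p = 0.00144 by permutation). The unadjusted p of this r, 1e-05, is the smallest that 100000 resamples can give. Without the 2 tumors farthest from the median of *Col4a1*, r was 0.888, and without gene trap replicate 2 it was 0.993. For *Col6a1* r was 0.947 with *Col6a2* (adjusted p = 0.00152 by permutation, rho 0.915 with adjusted p = 0.00342) and 0.964 with *Col6a3* (adjusted p = 0.00108 by permutation, rho 0.794 with adjusted p = 0.021). Without the 2 farthest tumors these r were 0.841 and 0.837.

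*Col1a1* and *Col1a2* had an r of 0.908 (adjusted p = 0.00365 by permutation) and a rho of 0.855 (adjusted p = 0.0106 by permutation), and r was 0.612 without the 2 farthest tumors. For *Col5a1* and *Col5a2* r was 0.844 (adjusted p = 0.00228 by permutation, rho 0.77 with adjusted p = 0.0256), 0.661 without the 2 farthest tumors and 0.663 without gene trap replicate 1. Without gene trap replicate 1, 4 pairs passed. *Col1a1* and *Col3a1*, whose products mix in fibrils, had an r of 0.659 (adjusted p = 0.0812 by permutation, rho 0.394 with adjusted p = 0.416). That relation rested on the 2 farthest tumors, since r was -0.07 without them.

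*Col4a3* and *Col4a4* had an r of 0.623 (adjusted p = 0.0936 by permutation) but a rho of 0.806 (adjusted p = 0.021 by permutation), and r was 0.77 without the 2 farthest tumors. *Col4a5* and *Col4a6* had an r of 0.384 (adjusted p = 0.41 by permutation, rho 0.382 with adjusted p = 0.416), or 0.431 without the 2 farthest tumors and 0.6 after the group means were removed. For *Col8a1* and *Col8a2* r was 0.213 (adjusted p = 0.741 by permutation, rho 0.224 with adjusted p = 0.716) and -0.05 without the 2 farthest tumors. The pairs of different classes had r near 0. *Col1a1* and *Col4a1* had an r of -0.06 (adjusted p = 0.957 by permutation, rho 0.079 with adjusted p = 0.865), but 0.71 without the 2 farthest tumors. With wildtype replicate 4 alone left out r was 0.595. *Col17a1* had an r of 0.06 with *Col1a1* (adjusted p = 0.957 by permutation, rho 0.067 with adjusted p = 0.865, r 0.153 without the 2 farthest tumors). With *Col4a1* its r was 0.001 (adjusted p = 0.998 by permutation, rho -0.176 with adjusted p = 0.758, r 0.211 without the 2 farthest tumors).

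**Figure D4:**
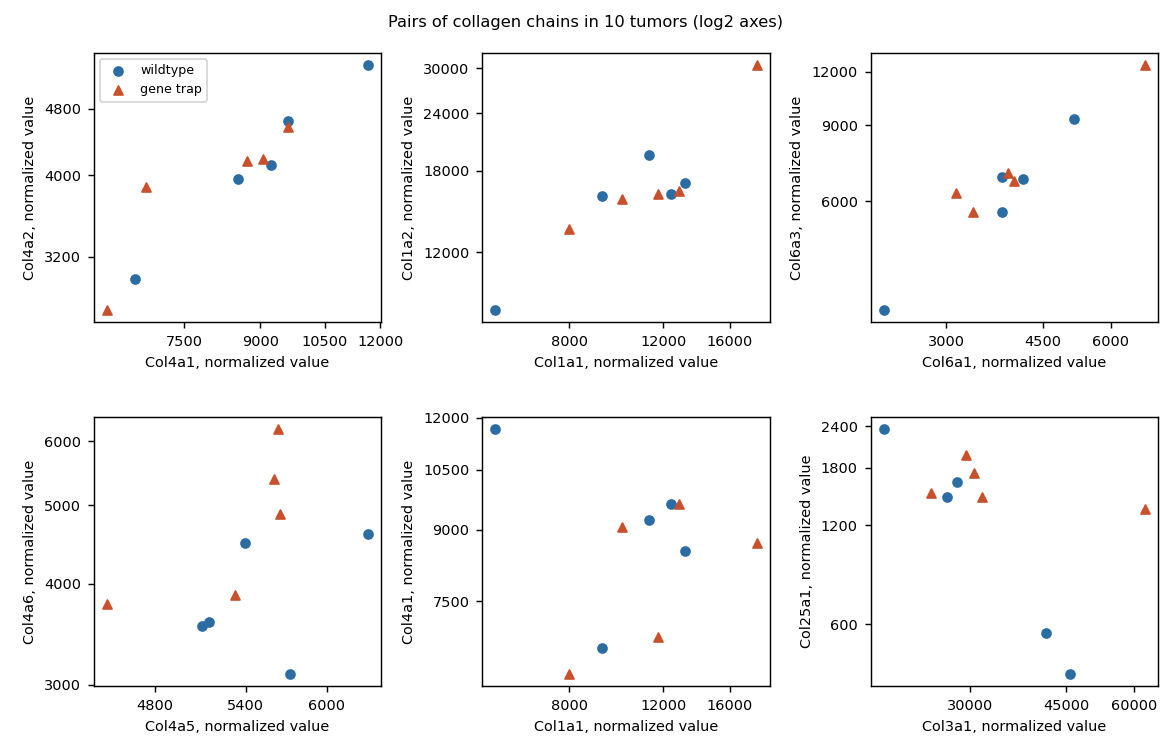
Normalized values of 6 pairs of chains in 5 wildtype (circles) and 5 gene trap tumors (triangles), 1 point per tumor, on log2 axes. *Col4a1* and *Col4a2* follow a line (r = 0.938), while *Col1a1* and *Col4a1* do not (r = -0.06), with wildtype replicate 4 in the upper left corner.

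The ratio of the levels per kb was computed for 8 pairs of partner chains, and its spread differed between them. It ranged from 1.73 to 4.72 for *Col8a1* over *Col8a2* and from 0.22 to 0.507 for *Col4a3* over *Col4a4*. *Col4a1* stood at 2.07 ± 0.135 (SD, n = 10) times *Col4a2*, between 1.72 in gene trap replicate 2 and 2.19. *Col1a1* stood at 0.605 ± 0.080 (SD, n = 10) times *Col1a2*, though the product of *Col1a1* is the more numerous chain of the type I protein. For *Col4a5* over *Col4a6* the ratio was 1.88, 1.22, 1.46, 1.40 and 1.46 in wildtype replicates 1 to 5 and 1.06, 0.922, 1.18, 1.40 and 1.22 in gene trap replicates 1 to 5. All values of the gene trap tumors but that of replicate 4 were at or below the lowest wildtype value. The log2 difference was -0.36 with an exact two-sided permutation p of 0.0238, which was 0.19 after adjustment over the 8 pairs for which a ratio was tested. No p below 0.00794 is possible with groups of this size. With single tumors left out the exact p lay between 0.0238 and 0.0714, and it was 0.0714 without gene trap replicate 2. The adjusted p of the other 7 ratios was 0.528 or more.

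**Figure D5:**
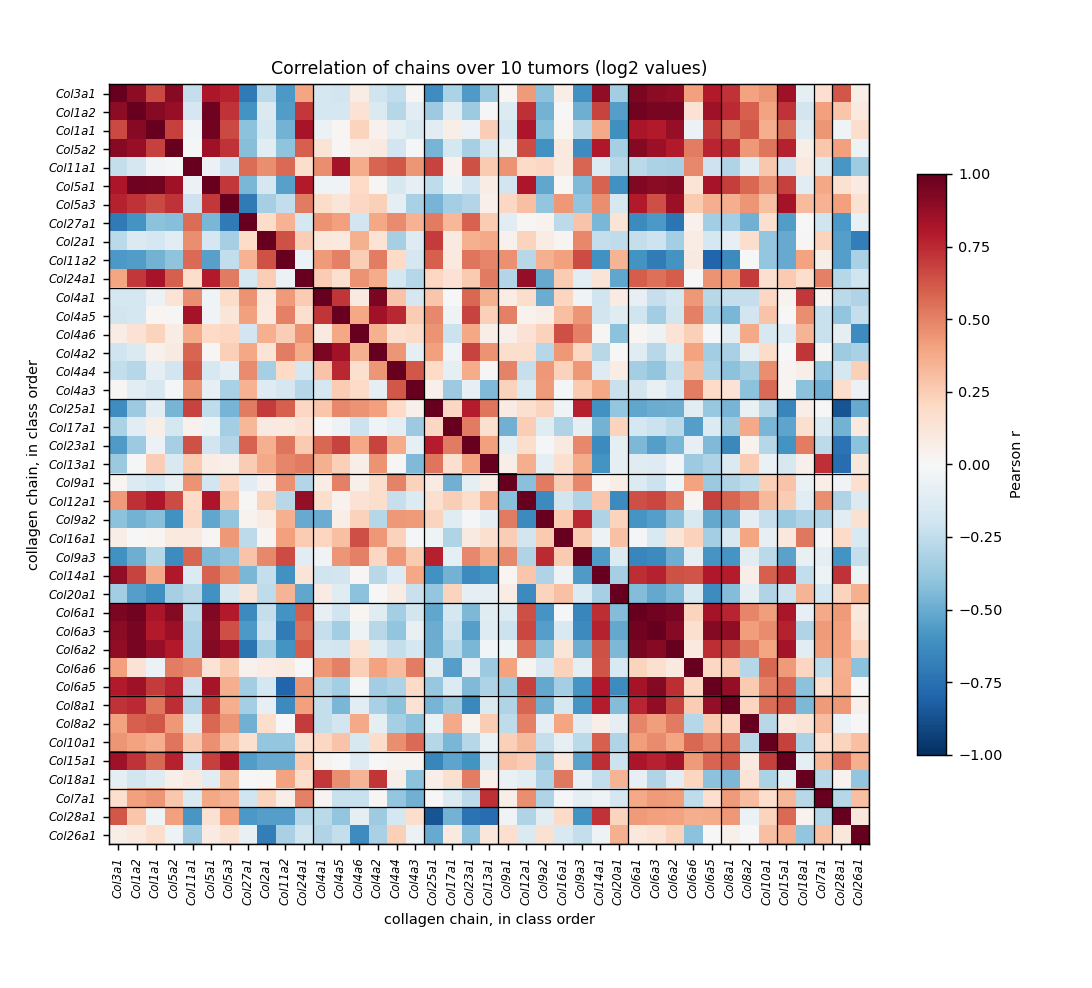
Pearson r between the log2 values of every pair of the 41 tested chains over 10 tumors, in class order with lines between classes (red, positive; blue, negative). Many fibrillar and type VI chains share red blocks, though r runs from -0.796 to 0.967 between these classes. All 20 pairs of a transmembrane with a type VI chain are negative.

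Across all pairs of tested chains, a block of stromal chains stood out. Several of its chains, such as *Col3a1*, *Col1a2* and *Col6a1*, were highest in gene trap replicate 1 and lowest in wildtype replicate 4. The median r within the type VI chains was 0.783 (10 pairs). Between the type VI and fibrillar chains r ran from -0.796 to 0.967 (55 pairs, 37 positive), and the median r was 0.484. It was 0.359 within the basement membrane chains (15 pairs) and 0.467 within the transmembrane chains (6 pairs, all positive). All 20 pairs of a transmembrane with a type VI chain had a negative r, with a median of -0.34. Between the fibrillar and transmembrane chains the median r was 0.053 (44 pairs, 24 positive). It was 0.081 between the fibrillar and basement membrane chains (66 pairs, 40 positive) and 0.219 between the basement membrane and transmembrane chains (24 pairs, 17 positive). These values share the same 10 tumors and are given as a description without a test. Within the fibrillar class the median r was 0.184, and *Col2a1*, *Col11a1*, *Col11a2* and *Col27a1* lay outside the block. So did the type VI chain *Col6a6*, with an r of 0.225 with *Col6a1* and 0.097 with *Col6a2*. Of pairs chosen after their values were seen and not tested, *Col25a1* had an r of 0.782 with *Col23a1*, 0.677 with *Col11a1* and -0.62 with *Col3a1*, or -0.84 without the 2 tumors farthest from the median of *Col3a1*.

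The chains were set beside the mean z scores of markers of 4 cell types (fibroblast, endothelial, basal and luminal epithelial). This set of 164 relations was added after the data were seen. At a permutation p adjusted over all 164, *Col14a1* (r = 0.925) and *Col3a1* (r = 0.918) followed the fibroblast markers, both with an adjusted p of 0.0246. Spearman's rho was 0.879 (adjusted p = 0.148 by permutation) for *Col14a1* and 0.818 (adjusted p = 0.155 by permutation) for *Col3a1*, so neither passed by rank. Without the 2 farthest tumors r was 0.768 and 0.784. *Col28a1* passed by rank only, with a rho of 0.939 (adjusted p = 0.041 by permutation) beside an r of 0.826 (adjusted p = 0.124 by permutation), and r was 0.941 without the 2 farthest tumors. The number of chains that passed by r with the fibroblast markers was 0 without wildtype replicate 3, 4 or 5 or gene trap replicate 2, 1 without gene trap replicate 1, where *Col28a1* passed and neither *Col14a1* nor *Col3a1* did, and 0 after the group means were removed. The r of *Col14a1* and *Col3a1* stayed between 0.879 and 0.954 throughout. With the endothelial, basal and luminal markers 0 chains passed by r. The median r of the type VI chains was 0.747 with the endothelial, 0.709 with the fibroblast and -0.548 with the luminal markers. That of the fibrillar chains was 0.521, 0.396 and -0.298 in the same order. These medians were not compared by a test, and the fibrillar class includes chains outside the stromal block.

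The 4 transmembrane chains all had a negative r with the fibroblast markers, with a median of -0.61, and the strongest was *Col25a1* at -0.70 (adjusted p = 0.207 by permutation, rho -0.588 with adjusted p = 0.363). A negative r was not confined to this class, since the fibrillar chain *Col27a1* was at -0.66. Over all 41 chains 23 had a positive r, and the median was 0.17. *Col17a1* had an r of 0.676 with the basal markers (adjusted p = 0.225 by permutation, rho 0.576 with adjusted p = 0.363), which was 0.176 without the 2 farthest tumors. The 10 fibroblast markers summed to between 8586 and 14750 in wildtype and between 9818 and 15800 in gene trap tumors, with the highest sum in gene trap replicate 1. Of these markers 5 were higher and 5 were lower in the gene trap mean, with a median log2 difference of 0.04, and none was at 0. The part of fibroblast content in the levels of the chains was not tested. Of the smooth muscle and pericyte markers, *Myh11* had an unadjusted p under 0.05, at -0.67 on the log2 scale, and *Krt17* of the basal markers was at -0.63. The 8 smooth muscle and pericyte markers as a list were split, with 4 higher and 4 lower in the gene trap mean and a median log2 difference of 0.01, and 2.28% of all genes tested had an unadjusted p under 0.05.

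The genes that make, export, cut, link and bind collagen were also compared. Over 7 lists with 76 genes, 72 were tested, of which 30 were higher and 42 were lower in the gene trap mean. Of these, 0 had an unadjusted p under 0.05 in limma, against 2.28% of all genes, and 0 an adjusted p under 0.05. Of the 20 genes for folding and modification of the chains 13 were lower, and the smallest p was that of *Colgalt1*, a galactosyltransferase of collagen. It was at 3831, 4135, 4081, 3955 and 4375 in wildtype replicates 1 to 5 and at 3573, 3002, 3865, 4063 and 3710 in gene trap replicates 1 to 5. All but 2 gene trap values of *Colgalt1* lay below every wildtype value, and its log2 difference was -0.17 (standard error 0.08) with an unadjusted p of 0.0676.

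Of the 8 genes for export of procollagen 6 were lower, and *Sec23a*, a COPII coat protein, was at -0.11 on the log2 scale. Of the 7 propeptide-removing enzymes tested 5 were higher, with *Adamts14* at 0.40. Of the 5 lysyl oxidases, which cross-link fibrils, 3 were lower, with *Loxl4* at -0.16. Of the 12 fibril-organizing proteoglycans and partners 7 were higher, with *Aspn* at 0.31, and their sum was highest in gene trap replicate 1 at 81020. Of the 9 other basement membrane proteins 7 were lower, with the proteoglycan *Agrn* at -0.13. Of the 11 collagen receptors tested 6 were lower, with *Itga2*, the alpha subunit of a collagen-binding integrin, at -0.27 and an unadjusted p of 0.116. The genes named are those with the smallest p of each list. *Tll2*, *Mep1a*, *Mep1b* and *Gp6* were not analysed here.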

How the data were processed

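Total RNA of mammary tumors was sequenced from stranded total RNA libraries. The authors deposited 1 table that holds, per gene and tumor, an estimated count already scaled between tumors by the median ratio method (a normalized signal). Per the labels, the submitters' processing notes name Partek, STAR (version 2.7.8a), DESeq2 and the build mm39. The annotation and counter were not given in the sources used here. Of 16 columns, 10 have names that match a tumor label, and the other 6 were not used. Each column is an animal's tumor, and p-values measure the spread between these tumors. Whole reads could not be recovered, so the depth is unknown and no interval for counting error is given.

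Symbols were found for 22899 (97.0%) of 23609 gene IDs. Values were converted to log2(value + 1), so folds of low genes are understated. limma (version 3.58.1, run in R 4.3.3) with a variance trend and no covariate was applied to the 21034 genes with a mean of at least 10, and p-values were adjusted over all of them (Benjamini-Hochberg). Single ratios were compared by exact permutation over 252 arrangements, and correlations by permutation with 100000 resamples (numpy 2.4.6, scipy 1.17.1), all two-sided. Transcript lengths came from GENCODE mouse release M21 (build GRCm38), and promoter sequences from RefSeq (GRCm38.p6). The limma fit and the permutation tests were checked on simulated data. The members, classes and gene lists were chosen with earlier results of these data known. Named with values were, in each class, the chain with the highest level per kb, the 5 chains with the smallest p, the chains of the tested pairs, the transmembrane chains and the smallest p of each collagen-related list. Other chains are given by their difference alone, and any other gene with values was picked with its values known. The values of 1 marker gene are not reported here. Alternatives were other pseudocounts, filters, quantile normalization, no variance trend, tumor weights, the replicate number as a block and each tumor left out.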

Additional observations from a re-analysis of the deposited data

Results flagged for a closer look

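A tumor was set apart where its gap to the nearest tumor of its group exceeded 0.71 of the group's range (Dixon's test). This was done on the normalized values and not on the log2 scale, which favors high outliers. Of 86 groups of 5 tumors (43 chains in both genotypes), 9 met this. By chance 4.3 would be expected if the values were normally distributed, which was not tested. Gene trap replicate 1 was the high tumor in 7 of these 9 groups. It had 62892 for *Col3a1*, where the other gene trap tumors were between 25407 and 31516, 30488 for *Col1a2* (13511 to 16255), 9295 for *Col5a2* (4675 to 5284) and 3137 for *Col14a1* (1650 to 1850). It also had 6933 for *Col6a1* (3117 to 3990), 12423 for *Col6a3* (5670 to 6983) and 154.5 for *Col6a6* (58.3 to 84.6). These chains vary together, so that the 7 are not independent. The fibroblast marker sum was 15800 in this tumor, against 9818 to 12170 in the remaining 4 of its group, and the part of fibroblast content was not tested. Gene trap replicate 5 was low for *Col4a5* at 4507 (5327 to 5646). Gene trap replicate 3 was high for *Col6a4* at 29.2 (1.99 to 3.73), a chain near the low end of the table.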

How the results depend on the processing

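The count of 0 chains at an adjusted p under 0.05 held under each alternative run. The count at an unadjusted p under 0.05 was 1 and was 0 with a mean of at least 50, where *Col20a1* was not tested. With each tumor left out it was 1 to 5. It was 5 without wildtype replicate 4 (*Col2a1*, *Col26a1*, *Col20a1*, *Col25a1* and *Col4a6*), 3 without wildtype replicate 5 (*Col8a1*, *Col20a1* and *Col17a1*) and at most 2 without any other tumor. Over all genes, 308 of 21052 had an unadjusted p under 0.05 without wildtype replicate 4 and 453 of 21009 without wildtype replicate 5. With each tumor left out this count over all genes lay between 308 and 692, against 479 of 21034 in the main run. The count among partner and marker genes was 3, and none of these was among the 72 partner genes tested. It was 5 with quantile normalization, with tumor weights and with the replicate number as a block. With each tumor left out it was 4 to 7. Over all genes the count was 479 in the main run, 519 with quantile normalization, 580 with tumor weights and 426 with the replicate block. The cause of these changes was not tested. The fibrillar median was -0.06 to 0.23, the basement membrane median -0.14 to 0.01 and the transmembrane median -0.19 to 0.14 with each tumor left out, so the sign of none of the 3 was fixed. The fibril-associated median was -0.09 to 0.13, and -0.07 with tumor weights. The number of pairs with an adjusted p under 0.05 was 4 to 6 with each tumor left out and 6 after the group means were removed.

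Of 231 values of named chains under the other alternatives 229 kept their sign, the exceptions being *Col15a1* at 0.011 and *Col4a3* at -0.017 with tumor weights. With single tumors left out the sign changed in 27 of 260 fits. The range was -0.057 to 0.25 for *Col6a1*, -0.10 to 0.061 for *Col9a1*, -0.11 to 0.25 for *Col3a1*, -0.16 to 0.15 for *Col15a1* and -0.32 to 0.10 for *Col28a1*. It was -0.22 to 0.014 for *Col4a2*, -0.15 to 0.22 for *Col4a3*, -0.081 to 0.0074 for *Col4a5* and -0.17 to 0.11 for *Col5a2*. For *Col8a2* it was -0.021 to 0.22, for *Col13a1* -0.063 to 0.23 and for *Col23a1* -0.41 to 0.061.

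Same-numbered tumors did not deviate together (correlations of 0.1028, -0.003, -0.1556, 0.1488 and -0.1418). This cannot exclude that the numbers pair animals, since paired animals need not deviate together. With the replicate block, 0 chains had an adjusted and 1 an unadjusted p under 0.05, and 426 genes an unadjusted p under 0.05 against 479 without it. A difference of the size seen here, within wide intervals of 5 tumors a group, does not show that the chains were alike in both groups. No filter and a mean of at least 1 gave the same 23609 genes.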
